A study of Mus musculus with 16 samples.

Results

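The 10 genes described here have been reported as direct targets of the microRNAs of the miR-302 seed family, and their messages were followed in mouse embryos with and without miR-302: Dazap2, Akt1, Mbd2, Suv39h1, Arid4b, Lats2, Rhoc, Casp8, Kdm1b and Irf2. They were taken by name, with earlier results of these data known, and make up 10 of the 24421 genes listed at each stage. Messenger RNA of wild-type (WT) and miR-302 knockout (KO) C57BL/6 embryos was sequenced at 3 stages of gestation, embryonic day (E) 7.5, then E8.5 and lastly E9.5. The E7.5 libraries came from whole embryos (2 WT, 2 KO), the E8.5 libraries from sorted Wnt1-Cre-positive cells (3 WT, 4 KO) and the E9.5 libraries from sorted Sox10-positive cells (2 WT, 2 KO). Wnt1-Cre marks the dorsal neural tube and the neural crest cells that leave it, and Sox10 is a transcription factor of migrating crest, so the 3 stages differ in cell population as well as in age. The labels give the genotype as WT or KO and do not describe the allele, nor do they say which libraries came from separate embryos or litters, so the p-values rest on the spread between these libraries, which may be technical. Whole embryos and sorted cells were bulk samples, in which fewer cells of a type and less RNA per cell cannot be told apart.

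A microRNA guides a silencing complex to messenger RNAs by pairing of its seed, the bases near its 5′ end, with matching sites that lie mostly in the 3′ untranslated region (3′UTR), and this pairing lowers the stability or translation of the message. The miR-302 cluster is transcribed in the pluripotent epiblast and its early derivatives and shares its seed with the miR-290 cluster of embryonic stem cells, so that both clusters can read the same sites. Loss of a microRNA that represses a message would raise that message, if no other microRNA takes its place. Translational repression is not seen by RNA sequencing.

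The seed itself is shown first because it defines the sites searched in the 10 genes. Mature sequences are from RefSeq (GRCm38.p6), 5′ to 3′, with the seed (bases 2 to 8) in capitals. The miR-302 cluster lies on chromosome 3 and the members of the miR-290 cluster shown lie on chromosome 7.
miR-302b-3p: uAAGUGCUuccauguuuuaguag
miR-302d-3p: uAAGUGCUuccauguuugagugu
miR-302c-3p: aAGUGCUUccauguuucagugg
miR-291a-3p: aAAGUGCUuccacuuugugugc
miR-294-3p: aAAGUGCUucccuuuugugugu
miR-295-3p: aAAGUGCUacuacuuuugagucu
The seed of miR-302b-3p and miR-302d-3p is identical to that of miR-291a-3p, miR-294-3p and miR-295-3p, and these 5 were the mature microRNAs with that seed among 1679 in the table. The listed miR-302c-3p begins 1 base later, so its bases 2 to 8 read AGUGCUU. The mature sequence of miR-302a-3p, another member of the cluster, was not among those searched, so its seed was not read here.

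The sense strand of the 3′UTR was searched for 4 kinds of match, each counted once as the longest kind it forms: the 8mer AGCACTTA, the 7mer-m8 AGCACTT, the 7mer-A1 GCACTTA and the 6mer GCACTT. In the longest annotated 3′UTR (GENCODE M21), 9 of the 10 genes held a 7mer or 8mer match, where 18.2% of 19468 genes with an annotated 3′UTR did. Since the genes were reported as targets of this seed, the count describes the list and is no result about it. An 8mer was present in Irf2, Lats2, Mbd2 and Suv39h1, and in 3.07% of all genes searched. Akt1, Arid4b, Dazap2 and Rhoc had a 7mer-m8 as their best match, Kdm1b a 7mer-A1, and Casp8 a 6mer alone. In the shortest annotated 3′UTR the count was 3 of 10 (Dazap2, Kdm1b and Suv39h1; 11.2% of all genes), so for the other 6 genes the match depends on which transcript end is used, which was not measured here. In coding sequence a 7mer-m8 was found in Lats2 and in Rhoc, 1 each, and 6mers in Akt1, Suv39h1 and Arid4b (1 each) and in Lats2 (2).

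The sites of the genes whose values are described most fully are printed below as 24-base windows on the mRNA strand, in GRCm38 (mm10), with the match in capitals. Each lies in the last exon, within the 3′UTR.
Dazap2, chr15:100619526-100619549, plus strand: gacatcacataccttcAGCACTTc
Suv39h1, chrX:8061915-8061938, minus strand: taggtattctttagatAGCACTTA
Akt1, chr12:112653995-112654018, minus strand: cgtgagcccttctcctAGCACTTg
Rhoc, chr3:104794315-104794338, plus strand: ccccatattacacaccAGCACTTt
Arid4b, chr13:14197734-14197757, plus strand: cagcaggacttgctagAGCACTTt
Lats2, chr14:57691086-57691109, minus strand: agtacagtatggaaagAGCACTTA
Kdm1b, chr13:47083123-47083146, plus strand: cctcaaaacccttccagGCACTTA
Arid4b carried its 7mer-m8 and its nearest 7mer-A1 side by side, beginning 17 and 25 bases after the stop codon, and a further 7mer-A1 at 143. In Dazap2 the 7mer-m8 began 46 bases after the stop codon and a 7mer-A1 lay near the other end of the 1265-base 3′UTR, at 1175. The 8mer of Suv39h1 began at 928 of 1679 bases, that of Lats2 at 195 of 1626 and that of Mbd2 at 289 of 480.

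**Figure D1:**
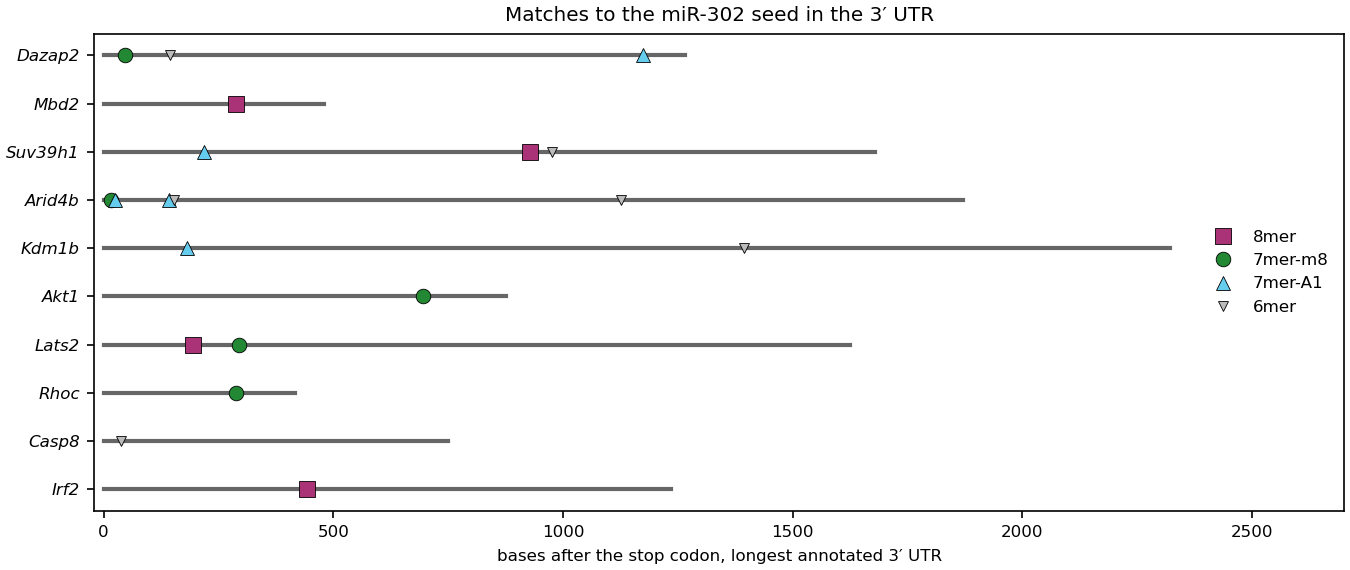
Positions of matches to the miR-302 seed in the longest annotated 3′UTR of each gene, in bases after the stop codon; grey lines show the length of the 3′UTR and symbols the kind of match. Casp8 has a 6mer alone, and the 3 matches of 7 bases in Arid4b begin at 17, 25 and 143.

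Before the target genes, the libraries themselves were examined. They held 4912827 to 14861728 reads in genes. The 4 precursor genes Mir302a to Mir302d gave 14 and 25 reads in the E7.5 WT libraries and 0 in both E7.5 KO libraries. At E8.5 the libraries held 1 read (WT1_5s) and at E9.5 1 read (WT2), all others 0, so that at these later stages the counts do not check the genotype in either direction. Poly(A)-primed libraries do not measure mature microRNA. The crest factor Sox10 was measured in every sorted library, with 663 to 1464 reads at E8.5 and 484 to 1267 at E9.5, against 1 to 6 reads in the whole E7.5 embryos. Red blood cell genes stood out in some KO libraries. Of 8 erythroid markers 3 to 5 had reads in the E8.5 WT libraries and 3 to 7 in KO, and the globin gene Hbb-y was at 0 in all E8.5 WT libraries and in KO3. The summed value of the erythroid markers was 19.7 to 22.5 in E8.5 WT and 16923 and 26342 in KO1 and KO2, 27.1 in KO3 and 1098 in KO4. At E9.5 that sum was 9.11 and 22.7 in WT, 273870 in KO1 and 301 in KO2. Of these markers 3 to 6 were detected in WT and 6 to 7 in KO. The summed value of 8 neural crest markers, all detected in every E9.5 library, was 3841 and 4103 in WT, 1303 in KO1 and 2535 in KO2. These are deposited values, whose totals were 13037864 and 14623235 in the E9.5 KO libraries and 7392263 and 7499920 in WT. A gene with an equal share of reads thus stands higher in KO. On this scale not all crest markers were lower in KO2. Sox10 was 722 and 639 in WT, 511 in KO1 and 1165 in KO2, and Foxd3 was 111 and 82.3 in WT, 79.2 in KO1 and 294 in KO2. As a share of all reads Sox10 was lower in both KO libraries. It had 713 of 7300598 reads in WT1, 1267 of 14861728 in WT2, 484 of 12351147 in KO1 and 685 of 8601679 in KO2. Other marker sums were higher in both E9.5 KO libraries. The 6 visceral endoderm markers (2 to 5 detected in WT, 4 to 5 in KO) summed to 17.2 and 19.2 in WT and to 545 and 1537 in KO. Amn was at 0 in KO1, and Afp and Cubn were at 0 in KO2, the library with the highest sum. The 5 epiblast markers summed to 107 and 124 in WT and to 689 and 1003 in KO; Pou5f1, Utf1 and Fgf5 were at 0 in both KO libraries. The 5 myeloid markers summed to 9.08 and 10.1 in WT, where Ptprc, Csf1r, C1qa and Tyrobp were at 0, and to 60.2 and 206 in KO, where all 5 were detected. Of the 7 uterine markers (2 to 3 detected), Ltf, Prss28, Prss29 and Prl8a2 were at 0 in every E9.5 library. The sum came from Clu, Dcn and Des alone (Dcn at 0 in WT1), and was 92.9 and 110.4 in WT and 240 and 439 in KO. These sums do not by themselves name a cell type, and their part in the E9.5 differences was not tested. At E7.5 the 9 trophoblast markers, all detected in every library, summed to 6150 and 10430 in WT and to 29170 and 51734 in KO, and the 7 uterine markers (6 or 7 detected) to 14500.3 and 17763 in WT and to 6510 and 6774 in KO. The libraries also differed in how values followed transcript length. At E9.5 the correlation across genes of a library's relative value with transcript length (Spearman) was 0.63 and 0.69 in WT and -0.50 and -0.61 in KO. This property and genotype thus cannot be told apart there, and the code number in the labels (209 for both WT, 171 for both KO) divides the libraries in the same way. At E8.5 the correlation varied within each genotype. It was -0.47, -0.39 and 0.52 in WT1_5s, WT2 and WT3, and 0.027, -0.035, 0.51 and -0.44 in KO1 to KO4. At E7.5 it was 0.26 and -0.21 in WT and 0.22 and -0.12 in KO.

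The levels of the 10 genes spanned a wide range. Compared per length of transcript, as reads scaled by transcript length and by the total of the library (RPKM), Akt1 and Dazap2 had the highest mean at every stage in both genotypes and Irf2 the lowest. In WT, Akt1 stood at 87.1 ± 12.3 (SD, n = 2) at E7.5, 70.8 ± 29.9 (n = 3) at E8.5 and 150.2 ± 9.03 (n = 2) at E9.5. Dazap2 stood at 60.0 ± 10.8, 45.4 ± 7.64 and 100.3 ± 8.02 RPKM in the same groups. These stages were normalised separately and hold different cells, so no test was made across them. A middle group was formed by Suv39h1, Mbd2, Rhoc and Arid4b, which in WT lay between 8.89 RPKM (Arid4b, E8.5) and 55.6 RPKM (Suv39h1, E9.5). Casp8, Lats2 and Kdm1b lay between 1.82 RPKM (Kdm1b, E8.5) and 6.12 RPKM (Casp8, E7.5), and the ranges of Lats2 and Kdm1b, neighbours in the order, overlapped in WT at E7.5 and E8.5. Other neighbours that were not separated beyond their spread in WT were Dazap2 and Rhoc, and Lats2 and Irf2, at E7.5, and Akt1 and Dazap2, and Rhoc and Mbd2, at E8.5. The mean of Irf2 lay between 0.516 and 0.843 RPKM in WT, and in E9.5 KO its range (0.466 to 0.486) fell inside that of Kdm1b (0.455 to 0.769). It rested on 3 to 40 reads per library, and 3 reads carry a 95% exact Poisson interval of 0.619 to 8.77 for counting error alone, so changes of Irf2 were not detectable at this depth unless large.

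All 10 genes passed the minimum mean value of 10 at every stage, and each was tested within its stage with limma over all genes that passed. At E7.5 Akt1 and Mbd2 had the largest log2 fold changes of the 10, 1.10 and 0.93. None of the 10 was called at an adjusted p below 0.05, and the background was 0 of 12492 genes, 0%. At an unadjusted p below 0.05 stood 2 of the 10 (Akt1 and Mbd2, both higher in KO), where 385 genes (3.08%) did so in either direction by limma and 399 by edgeR. Both KO libraries lay above both WT libraries for 4 of the 10 (Dazap2, Akt1, Mbd2 and Suv39h1; 16.1% of all genes) and below them for 0 (12.7%). The median log2 fold change, KO over WT, was 0.09 over the 10 and -0.01 over all genes.

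At E8.5, in the Wnt1-Cre cells, 9 of the 10 genes had a positive log2 fold change, with Dazap2 well ahead of the others. A positive value was found for 46.9% of all 12257 genes tested, and Rhoc was the exception among the 10. None was called by limma, and the background was again 0 genes, 0% (742 genes, 6.05%, at an unadjusted p below 0.05; 743 by edgeR). At that unadjusted level stood 2 of the 10, Dazap2 and Suv39h1, both higher in KO as were 3.14% of genes. For the same 2 genes all 4 KO libraries lay above all 3 WT libraries, which held for 3.71% of genes. The median log2 fold change was 0.29 over the 10 and -0.03 over all genes.

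At E9.5, in the Sox10 cells, 2 of the 10 genes rose (Rhoc and Dazap2) and 2 fell (Arid4b and Kdm1b) in KO at an adjusted p below 0.05 (limma, Benjamini-Hochberg). Over all genes tested 5700 of 12000 (47.5%) were called, 2944 of them higher (24.5%) and 2756 lower (23%), so the count of 4 in 10 is at the background. The genotypes did not overlap for 8 of the 10 and for 80.3% of all genes. The median log2 fold change was 0.25 over the 10 and -0.14 over all genes (0.01 over all genes by DESeq2).

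**Figure D2:**
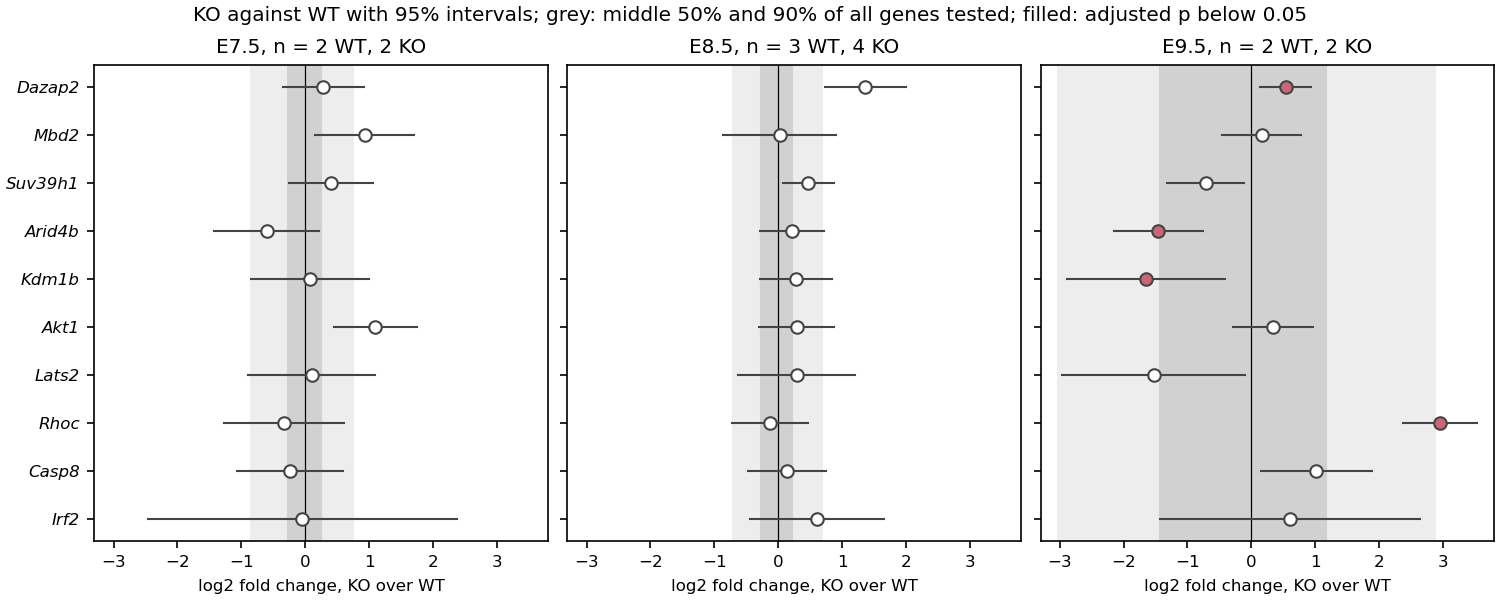
Log2 fold change, KO over WT, of each gene (points) with its 95% interval from limma (lines) at E7.5, E8.5 and E9.5; grey bands hold the middle 50% and 90% of all genes tested and filled points passed an adjusted p below 0.05. Dazap2 at E8.5 lies at 1.36, outside the band of its stage, while at E9.5 the band spans -3.03 to 2.89 and of the 10 genes Rhoc alone, at 2.95, lies outside it.

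Dazap2 encodes a small proline-rich protein first found as a partner of the germ-cell RNA-binding protein DAZ. Its deposited value at E8.5 was 1173, 1379.8 and 734 in WT1_5s, WT2 and WT3, and 3295, 3584, 2258 and 2079.5 in KO1 to KO4. Every KO library lay above every WT library, and the gap was widest for KO1 and KO2, the libraries with the most erythroid message. The log2 fold change was 1.36 ± 0.29 (SE; 2.57-fold, 95% interval 1.66 to 3.99), rank 14 of 12257 genes by p, and an adjusted p of 0.607 by limma. DESeq2 on the recovered reads called it (adjusted p = 0.00876), and edgeR did not (0.651); over the other settings run the adjusted p went from 0.0116 to 0.9999. Without KO1 and KO2 the log2 fold change was 1.03 (adjusted p = 0.9999), and with the length and GC trend of each library removed it was 1.34. The one WT and KO pair that shares a code number, WT2 and KO4 (code 169), differed by 0.59 on the log2 scale.

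At E7.5 Dazap2 was 933 and 829.2 in WT and 1127 and 1015 in KO. The KO values lay above the WT values, by a log2 fold change of 0.28 ± 0.27 (adjusted p = 0.99996, limma), which is no larger than its error. At E9.5 it was 1673 and 1515 in WT and 2185 and 2453 in KO, and the log2 fold change of 0.54 ± 0.16 passed (adjusted p = 0.0392). That direction depends on the scaling: it was -0.13 after quantile normalisation and -0.06 once the trend over length and GC was taken out, and as a share of all reads Dazap2 was 100.3 ± 8.02 RPKM in WT and 78.5 ± 0.0537 in KO. The deposited values of the E9.5 KO libraries sum to 13037864 and 14623235 and those of the WT libraries to 7392263 and 7499920, so a gene with an equal share of all reads has a higher deposited value in KO.

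Suv39h1, Mbd2, Arid4b and Kdm1b act on chromatin. Suv39h1 encodes a histone methyltransferase that sets trimethylation of lysine 9 on histone H3 in silent heterochromatin. At E8.5 it was 789, 799.9 and 900.4 in WT and 1139, 1165, 1290.3 and 1021 in KO1 to KO4. The WT and KO values did not overlap, with a log2 fold change of 0.47 ± 0.18 (1.39-fold; adjusted p = 0.807, limma). This difference was 0.42 to 0.53 with each library left out in turn, 0.47 without KO1 and KO2 and 0.35 within code 169. At E7.5 it was 657 and 695 in WT and 1008 and 799 in KO (0.41 ± 0.28), again without overlap. At E9.5 the order was the other way round, 1271 and 1312 in WT and 961 and 644 in KO (-0.71 ± 0.24, adjusted p = 0.0571), and after removal of the length and GC trend the E9.5 value was -0.34. Suv39h1 was called lower at E9.5 by DESeq2 (adjusted p = 0.0490), after quantile normalisation (0.0107), with a minimum mean of 100 (0.0375) and without KO1 or KO2 (0.00475 and 0.0361, limma), and over the other settings the adjusted p reached 0.305. Of the exon bases of Suv39h1 14.6% are shared with Gm14820 on the other strand, and these libraries do not mark strand.

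Mbd2 binds methylated CpG and brings the NuRD remodelling complex to it. At E7.5 its value was 311 and 286 in WT and 444 and 736 in KO. Both KO libraries lay above both WT libraries, and the KO2 value was the higher by far, so the log2 fold change of 0.93 ± 0.33 (1.91-fold; adjusted p = 0.99996, limma) was 0.57 when KO2, which has a code number of its own, was left out. At E8.5 the groups overlapped: 272, 403 and 269 in WT and 321, 234, 189 and 684 in KO. KO4 alone stood high, the log2 fold change was 0.02 ± 0.40, and it was -0.35 without KO4. At E9.5 Mbd2 was 311 and 306 in WT and 307 and 391 in KO (0.17 ± 0.25), a difference within the spread of the libraries. With the length and GC trend removed the value was -0.68 (adjusted p = 0.0892).

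Arid4b encodes a subunit of the SIN3 histone deacetylase complex. At E9.5 it was 490.1 and 502 in WT and 214 and 151 in KO, both KO libraries far below both WT libraries. It fell by 1.46 on the log2 scale (SE 0.28, 2.74-fold lower, adjusted p = 0.0111, limma). Without WT1 or without WT2 the adjusted p was 0.118 and 0.122, and after removal of the length and GC trend the value was 0.07 (adjusted p = 0.833). At E8.5 Arid4b was 604, 672 and 465 in WT and 736, 834, 593 and 542 in KO (0.22 ± 0.23), and at E7.5 427 and 693 in WT and 430.0 and 297 in KO (-0.60 ± 0.35). The genotypes overlapped at both earlier stages.

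Kdm1b (LSD2) removes methyl groups from lysine 4 of histone H3. Its E9.5 value was 117 and 143 in WT and 29.6 and 56.1 in KO. It fell by 1.65 on the log2 scale (SE 0.49, 3.13-fold lower, adjusted p = 0.0413, limma), but the call was lost without WT1 or WT2 (adjusted p = 0.236 and 0.342), with quantile normalisation (0.127), by DESeq2 (0.0522) and after removal of the length and GC trend (-0.27, adjusted p = 0.747). At E8.5 it was 85.4, 88.5 and 117 in WT and 135, 123, 117 and 97.4 in KO (0.28 ± 0.25), and at E7.5 93.5 and 67.8 in WT and 71.0 and 99.4 in KO (0.08 ± 0.40), with overlap at both stages. Of its exon bases 9.19% are shared with Dek on the other strand.

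Akt1, Lats2 and Rhoc belong to signalling. Akt1 is the kinase that carries PI3K signals to growth and survival. At E7.5 its value was 1664 and 1564 in WT and 3198 and 3733 in KO. The gap between genotypes was much wider than the spread within each, with a log2 fold change of 1.10 ± 0.28 (2.14-fold, 95% interval 1.36 to 3.36), rank 50 of 12492 genes by p, and an adjusted p of 0.99996 (limma). DESeq2 gave an adjusted p of 0.193, and the range over the settings run was 0.103 to 0.999995. Within code number 239, which leaves WT1, WT2 and KO1, the log2 fold change was 0.99. The E7.5 KO libraries are also the ones with the higher trophoblast sum and the lower uterine sum given above. Their mesoderm sum (5 markers, all detected) was higher too, 3286 and 3975 against 2399 and 1638 in WT. The myeloid sum (4 to 5 of 5 markers detected) was 168 and 161 in KO and 153 and 60.3 in WT. The part of these sums in the Akt1 difference was not tested. At E8.5 Akt1 was 1642, 1869 and 2558 in WT and 2542, 1921, 2054 and 3506 in KO, overlapping, with 0.29 ± 0.26. At E9.5 it was 3114 and 2901 in WT and 4812 and 3016 in KO; KO1 stood apart from the other 3 libraries and the log2 fold change of 0.34 ± 0.25 (adjusted p = 0.290) was 0.68 without KO2, 0.00495 without KO1 and -0.61 after quantile normalisation.

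Lats2 is a kinase of the Hippo pathway that holds the co-activator YAP out of the nucleus. Its values varied several-fold within genotypes: 54.2, 90.9 and 184 in E8.5 WT and 135, 111, 166 and 79.98 in E8.5 KO (0.29 ± 0.41). At E7.5 they were 108 and 56.5 in WT and 84.9 and 83.3 in KO (0.10 ± 0.43). At E9.5 they were 178 and 239.7 in WT and 42.2 and 119 in KO, lower in both KO libraries without passing (-1.53 ± 0.57, adjusted p = 0.0754, limma), and -0.22 after removal of the length and GC trend. Leaving out KO2 gave -2.26 (adjusted p = 0.00892) and leaving out KO1 gave -0.79. Of the exon bases of Lats2 42.4% are shared with Gm49361 on the same strand, so its counts are uncertain to that extent.

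Rhoc encodes a small GTPase that drives actomyosin contraction and cell migration. At E9.5 it was 133 and 121 in WT and 916 and 1063 in KO. Both KO libraries stood far above both WT libraries and close to each other. They are also the libraries with the higher erythroid, visceral endoderm, epiblast and myeloid marker sums given above, the epiblast sum from Nanog and Otx2 alone. Their sum of Clu, Dcn and Des was higher too. So was their summed deposited value of 5 neural tube markers, 191 and 221 against 125 and 102 in WT. Of these, Wnt1 went the other way (24.3 and 23.7 in WT, 0 and 3.40 in KO). The part of these sums in the Rhoc difference was not tested. Rhoc rose by a log2 fold change of 2.95 ± 0.23 (7.75-fold, 95% interval 5.19 to 11.6; adjusted p = 0.000999, limma). The call was made in each of the settings run, including without each library in turn (2.85 to 3.06). It is also the gene with the shortest transcript of the 10, 1202 bases, and after removal of the length and GC trend the value was 1.14 (adjusted p = 0.0225). As a share of all reads it was 14.2 ± 1.10 RPKM in WT and 59.5 ± 1.40 in KO. No such difference was seen earlier: Rhoc was 274, 268 and 179.9 in WT and 215, 190.5, 176 and 305 in KO at E8.5 (-0.13 ± 0.27), and 555 and 317 in WT and 250.5 and 443 in KO at E7.5 (-0.33 ± 0.40). Whether the effect differs between stages was not tested, because the stages were normalised separately.

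Casp8 and Irf2 act in cell death and in the interferon response. Casp8 starts apoptosis downstream of death receptors, and it was the gene with a 6mer alone. At E9.5 it was 78.0 and 75.7 in WT and 172 and 143 in KO, without overlap (1.02 ± 0.35, 2.03-fold; adjusted p = 0.0589, limma), and the value was 0.98 with the length and GC trend removed. It was called after quantile normalisation (adjusted p = 0.0166, limma) and without KO2 (0.0282), while as a share of all reads Casp8 was 3.99 ± 0.124 RPKM in WT and 4.44 ± 0.939 in KO, with overlap. At E8.5 it was 217, 139 and 112 in WT and 165, 182, 186 and 136 in KO (0.14 ± 0.28), and at E7.5 94.9 and 126 in WT and 96.0 and 88.9 in KO (-0.24 ± 0.36). Irf2, a transcription factor that restrains interferon-responsive genes, was 21.7, 13.5 and 8.8 in E8.5 WT and 21.2, 12.5, 24.1 and 33.6 in KO (0.61 ± 0.47). It was 23.9 and 3.77 in WT and 5.57 and 16.03 in KO at E7.5 (-0.04 ± 1.04) and 15.2 and 7.07 in WT and 15.8 and 17.0 in KO at E9.5 (0.61 ± 0.81). With so few reads the 95% interval at E7.5 ran from -2.47 to 2.38.

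**Figure D3:**
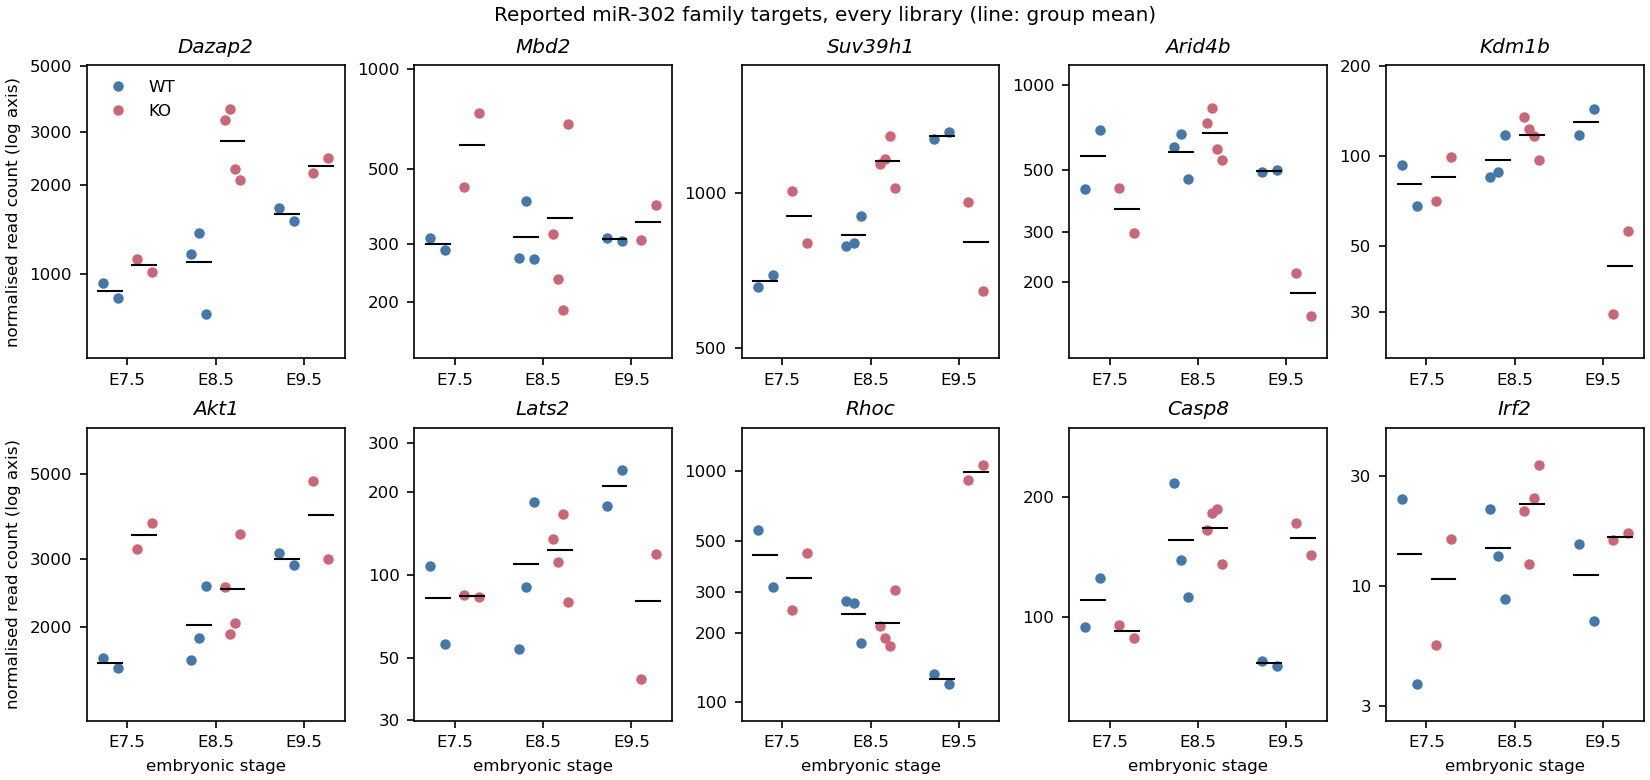
Deposited normalised read count (log axis) of each gene in every library at E7.5, E8.5 and E9.5, WT in blue and KO in red, with the group mean as a line. Akt1 at E7.5 and Rhoc at E9.5 show a gap between the genotypes that is wider than the spread within each, and Dazap2 at E8.5 shows no overlap but a gap narrower than the spread within either genotype.

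In the deposited values at E9.5 the sign of each difference followed transcript length without exception among the 10. The 6 genes with the shortest transcripts (1202 to 2690 bases: Rhoc, Mbd2, Dazap2, Irf2, Casp8 and Akt1) had positive log2 fold changes, and the 4 with the longest (3116 to 5864 bases: Suv39h1, Kdm1b, Lats2 and Arid4b) had negative ones. This split depends on the scaling. After quantile normalisation 4 of the 10 were positive. As a share of all reads, the KO mean was lower for Akt1 (150.2 RPKM in WT, 106.9 in KO), Dazap2 (100.3, 78.5) and Mbd2 (21.2, 12.9). It was also lower for Irf2 (0.600, 0.476), with overlap. Of the 6 shorter genes, Rhoc and Casp8 alone kept a higher mean in KO, Casp8 with overlap. Across the 10 genes Spearman's rank correlation of fold change with length was -0.78, and across all 11557 genes with a known length it was -0.67. At E8.5 these values were 0.19 and 0.10, and at E7.5 -0.13 and 0.05. They describe these libraries, in which all genes share the same 4 libraries at E9.5, and genes are not independent replicates. With the trend over length and GC content removed from each library, 1 of the 10 genes was called at E9.5 (Rhoc), where the whole table had 2410 calls, and the sign of Arid4b, Dazap2 and Mbd2 turned. The part of length in the E9.5 differences and that of the genotype cannot be told apart in this design.

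**Figure D4:**
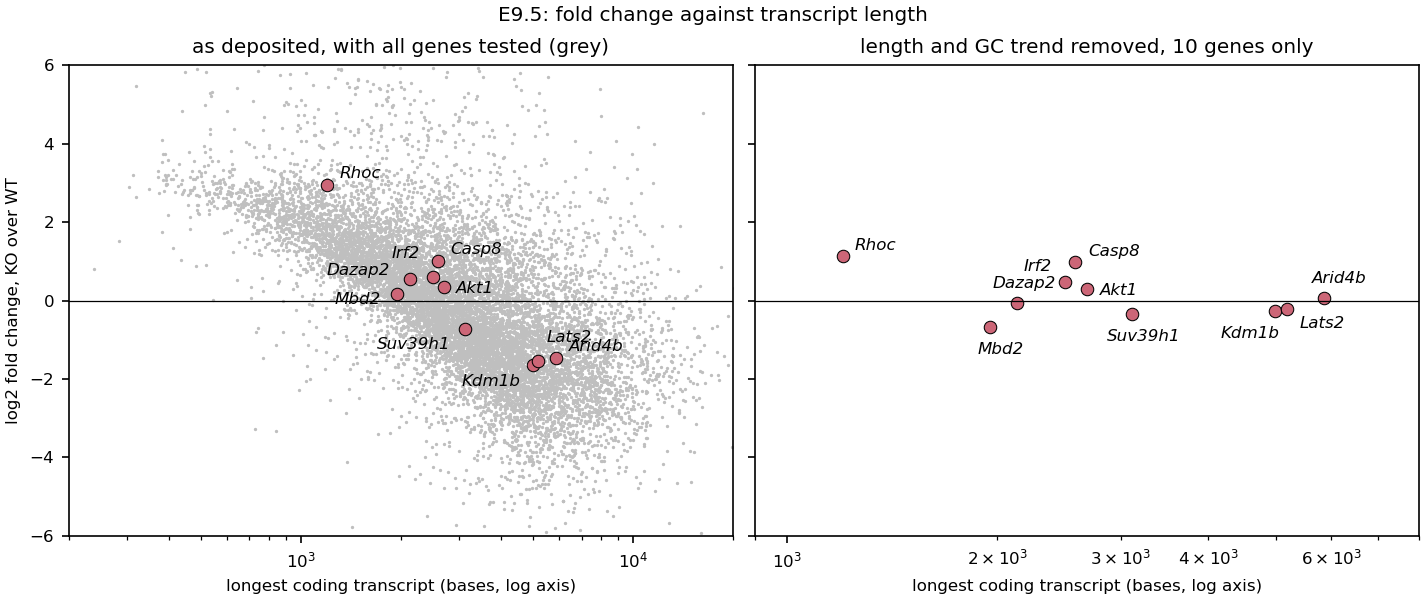
Log2 fold change at E9.5, KO over WT, against the length of the longest coding transcript (log axis); left, the 10 genes (red) with all genes tested (grey; 67 genes beyond the axis are not drawn); right, the 10 genes with the length and GC trend of each library removed. On the left the 6 shorter genes lie above 0 and the 4 longer ones below, and on the right Rhoc (1.14) and Casp8 (0.98) are the highest.

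Across the table, genes with a seed match had median fold changes whose order against the other genes differed between stages. At E8.5 the median log2 fold change was 0.12 for the 414 genes with an 8mer and -0.04 for the 7518 genes with no match. Of the 8mer genes 9.42% were higher at an unadjusted p below 0.05 (limma), against 2.93% of those with none. Fold change at E8.5 was also weakly correlated with transcript length (Spearman 0.10 over 11804 genes), and the part of length in this difference was not tested. The 4 genes of the list with an 8mer stood at 0.61 (Irf2), 0.47 (Suv39h1), 0.29 (Lats2) and 0.02 (Mbd2), whereas the highest of the list, Dazap2, has a 7mer-m8 and a 7mer-A1. At E7.5 the same medians were 0.01 and -0.01. At E9.5 they were -0.91 and 0.15, the reverse order, in the libraries with the opposed length trends.

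Other genes reported as targets of the same seed were read beside these. At E8.5, 9 of the 14 tested had a positive value (median 0.25), none was called by limma and 3 were higher at an unadjusted p below 0.05: Fgf15, a secreted fibroblast growth factor (2.32-fold; adjusted p = 0.777, limma), Ccnd1, a cyclin of the G1 phase (1.79-fold; adjusted p = 0.777), and Bmi1, a Polycomb subunit (1.67-fold; adjusted p = 0.807). At E7.5, 11 of 16 were positive (median 0.13, against -0.01 over all genes). Lefty2, a Nodal antagonist, was 2.29-fold higher and Kdm1a, the LSD1 demethylase, 1.87-fold higher. Both stood at an unadjusted p below 0.05 and an adjusted p of 0.99996 (limma). At E9.5, 5 of 14 fell and 0 rose (median -0.74), where 23% of all genes fell and 24.5% rose (median -0.14). Among those that fell were Kdm1a (2.79-fold lower, adjusted p = 0.00343, limma), Bmi1 (3.48-fold lower, adjusted p = 0.00651) and Ccnd2, another cyclin (1.95-fold lower, adjusted p = 0.0209). The part of transcript length in these falls was not tested.

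The partners of the 10 gene products were read from lists of their pathways. None of their genes was called at E7.5 or E8.5. At E7.5 Rcor1, the corepressor that works with LSD1, had the smallest p of these lists (1.93-fold higher; adjusted p = 0.99996, limma). The most positive lists were the LSD list, with all 5 genes positive (median 0.68), and that around Rhoc, with 8 of 9 (median 0.42). Among the latter was Rac1, a GTPase of actin dynamics (1.67-fold). The other lists ran from 3 of 10 positive (SIN3) to 9 of 13 (around Akt1), and the median over all genes was -0.01. At E8.5 the Hippo list around Lats2 had 11 of 16 genes positive (median 0.21), while Yap1, the co-activator that Lats2 restrains, was lower in KO in all libraries (1.58-fold lower; adjusted p = 0.807, limma). Yap1 at E7.5 was 1.73-fold higher (adjusted p = 0.99996, limma). The list around Akt1 had 6 of 13 positive at E8.5 (median -0.15), with Foxo1, a transcription factor that Akt1 inhibits, at a log2 fold change of -0.58 (adjusted p = 0.815, limma).

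At E9.5 more genes of the same lists fell than rose. Of the 13 genes around Akt1 7 fell and 0 rose (median -1.67), with Rictor, a subunit of the mTORC2 kinase that activates Akt1, 8.53-fold lower (adjusted p = 0.00994) and Pik3ca, a catalytic PI3K subunit, 5.09-fold lower (adjusted p = 0.00646). Of the 17 Hippo genes 8 fell, including Nf2, an upstream activator of the pathway (3.90-fold lower, adjusted p = 0.00540), and Cyr61, a YAP target (5.12-fold lower, adjusted p = 0.00578), and 1 rose, the YAP partner Tead2 (2.94-fold, adjusted p = 0.00310). Among the 9 genes around Rhoc 2 rose and 3 fell, and the fallen ones included the kinases Rock1 and Rock2 (4.08-fold and 6.83-fold lower, adjusted p = 0.00432 and 0.00632). The SIN3 list around Arid4b was split, with Sin3b higher (3.08-fold, adjusted p = 0.00213) and Sin3a lower (5.83-fold, adjusted p = 0.00314). Of the NuRD and methyl-CpG list around Mbd2 1 of 13 rose, Mbd3 (2.78-fold, adjusted p = 0.00152), and 4 fell. Around Suv39h1 1 of 8 rose and 2 fell, around Kdm1b 3 of 5 fell, around Casp8 1 of 9 rose (Cflar, an inhibitor of Casp8; 2.32-fold, adjusted p = 0.0271) and 1 fell, and around Irf2 1 of 8 rose (Irf3, 1.73-fold, adjusted p = 0.0450). Of all genes 24.5% rose and 23% fell at this stage, and the lists were not tested against the rest of the table. Over all genes the E9.5 fold change also followed transcript length (Spearman -0.67). Calls over all genes went from 5700 to 2410 with the length and GC trend removed. The part of length in the falls and rises of these lists was not tested.

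The genes whose pattern over the 7 E8.5 libraries was most like that of Dazap2 were Taf9b, Fst and Plat, with mean absolute differences of 0.15, 0.15 and 0.17 in centred log2 value. Taf9b, a subunit of the basal transcription machinery, was 32.5, 33.2 and 22.5 in WT and 87.8, 79.1, 70.3 and 52.2 in KO1 to KO4. Fst encodes follistatin, a secreted antagonist of activin, and was 245, 385 and 165 in WT and 647, 685, 509 and 386 in KO. Plat, the tissue plasminogen activator, was 59.6, 78.6 and 48.9 in WT and 191, 132, 116 and 111 in KO. As in Dazap2, the lowest library in each was WT3.

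The authors' deposited tables of selected genes, each with an unadjusted p-value below 0.05, hold some of the same genes. At E8.5 the authors' deposited table of higher genes lists Dazap2 with a log2 fold change of 1.36 (adjusted p = 0.00992) and Suv39h1 with 0.48 (adjusted p = 0.537). At E9.5 the authors' deposited tables list Rhoc (2.97, adjusted p = 1.3e-21) and Dazap2 (0.54, adjusted p = 0.0336) as higher. Listed as lower are Kdm1b (-1.62, adjusted p = 0.0486), Arid4b (-1.43, 0.000589), Lats2 (-1.39, 0.0836) and Suv39h1 (-0.68, 0.0519). The authors' adjusted p of Lats2 and of Suv39h1 thus lies above 0.05. The authors' deposited E7.5 list was not used for values, since its mean values matched those of the E7.5 table for 0.0892% of genes.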

How the data were processed

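RNA was sequenced from 16 samples in 6 groups of stage and genotype, of which 15 had values; 1 E8.5 KO sample (KO4_5s) was not analysed here. Groups follow the sample titles. Per the labels' protocols, cDNA was made with SMART-Seq v4, which does not mark strand, and sequencing libraries with Nextera XT. The submitters' processing notes name FastQC 0.11.5, STAR 2.7.0f and the mm10 build. Which counter and annotation were used is not stated in these sources. The values the authors deposited for each stage are normalised signal, gene counts divided by a factor per library. Every value (100%) was a whole multiple of 1 read within 0.01 of a read, which gave the depths. The authors' deposited lists give mean signal, log2 fold change, its standard error, a test score and p-values.

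Each stage was fitted alone on log2(value + 1), for genes with a mean of at least 10, by limma 3.58.1 (R 4.3.3; trended, two-sided) with Benjamini-Hochberg adjustment over all genes at 0.05, so fold changes of low genes are understated. As alternatives, the recovered reads were tested with edgeR 4.0.16 and DESeq2 1.42.0, with other pseudocounts (8, 0.1), minimum means (100, none), scalings, a loess trend over transcript length and GC content (span 0.3) removed, a replicate block, code numbers, a threshold of 0.1 and each library left out. Genes are the 10 named, the miR-302 locus, up to 3 genes of smallest p per list and stage, and the 3 most like Dazap2. The 10 genes and the lists were chosen with earlier results of these data known. Of 24421 symbols 23334 matched GENCODE M21. The limma fit was tested on simulated data.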

Additional observations from a re-analysis of the deposited data

Results flagged for a closer look

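Suv39h1 was the one gene of the 10 whose KO libraries all lay on one side of the WT libraries at 2 stages and on the opposite side at another. Its log2 fold change, KO over WT, was 0.41 at E7.5 (both KO libraries above both WT libraries) and 0.47 at E8.5 (all 4 KO libraries above all 3 WT libraries), and -0.71 at E9.5 (both KO libraries below both WT libraries). Over all genes, every KO library lay above every WT library for 16.1% at E7.5 and 3.71% at E8.5. At E9.5 80.3% of all genes did not overlap, in either direction. How many genes of the table showed the same reversal was not counted. The difference between stages was not tested, since the stages were normalised separately. At E9.5 the library trends over transcript length run in opposite directions in WT and KO, and with the trend over length and GC content removed the E9.5 value was -0.34; its part in the opposite sign was not tested. Within the 4 E8.5 KO libraries, the only group large enough to examine, no library passed Dixon's criterion for an outlying value in any of the 10 genes, where chance would flag about 1 group in 20; the high KO4 value of Mbd2 (684) did not pass it.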

How the results depend on the processing

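Of the settings run for single genes, 423 values kept their direction and their side of the threshold, 12 lost a call, 12 gained one and 26 turned sign; the cause was not tested. At E7.5, where limma called no gene of the table, DESeq2 called 31, the replicate block 47, the crossed block 48 and code number 239 alone 17, none of them among the 10 genes. The median of the 10 was 0.28 with a minimum mean of 100, which leaves 7 of them, and -0.024 in code 239. Kdm1b was -0.16 in code 239, and Irf2 0.0067 after quantile normalisation and 0.00094 without the trend over length and GC. At E8.5 DESeq2 and the replicate block (KO4 has no partner and was dropped) each called 1 of the 10, Dazap2, and 28 and 678 genes in all. The median was 0.25 by DESeq2, 0.34 with the block, 0.24 without the length and GC trend and 0.23 without KO1 and KO2. Values that turned were Mbd2 at -0.0025 (quantile) and -0.35 (block), Arid4b at -0.017 without KO1 and KO2, Lats2 at -0.14 and Rhoc at 0.13 with codes 163 and 169 as a block, and Rhoc at 0.12 without the trend. At E9.5 2 of the 10 were called with no minimum mean (4997 of 17137 genes in all) and 1 without the length and GC trend (2410 of 11557). At a threshold of 0.1, 7 of the 10 were called, and the count over all genes is not given here. The median was -0.37 after quantile normalisation and 0.0049 without the trend. Dazap2 turned to -0.13 (quantile) and -0.060 (trend removed), Akt1 to -0.61 (quantile), and without the trend Mbd2 to -0.68 and Arid4b to 0.070. The E9.5 replicate block called 4 of the 10, with Lats2 in place of Dazap2 (adjusted p = 0.0259 and 0.120), and the crossed block 6. Of all 12000 genes these blocks called 5722 and 6665. Of the 10 genes 3 held a 7mer or 8mer in the shortest 3′UTR, and 4 held an 8mer in the longest.

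Replicate numbers did not pair the libraries: same-numbered libraries correlated at -0.12 (E7.5), 0.076, -0.025 and 0.55 (E8.5) and -0.17 (E9.5). The crossed pairing was chosen after seeing the data. With each library left out in turn (a group of 1 then takes the spread of the other group), the calls over all genes ran from 12 to 38 at E7.5, 0 to 3 at E8.5 and 1920 to 8689 at E9.5, and over the 10 genes at E9.5 from 1 (without WT1 or WT2; Rhoc) to 8 (without KO2). The median ran from -0.095 to 0.37, 0.22 to 0.37 and 0.13 to 0.29. At E7.5 Lats2 ran from -0.36 to 0.56, Rhoc from -0.74 to 0.080, Kdm1b from -0.16 to 0.32 and Irf2 from -1.24 to 0.64. At E8.5 Mbd2 ran from -0.35 to 0.27, Lats2 from -0.12 to 0.75 and Casp8 from -0.062 to 0.41, and at E9.5 Mbd2 ran from -0.0065 to 0.34. Depth limits Irf2 above all, at 3 to 40 reads per library.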
